A study of Homo sapiens with 6 samples.

Results

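The genes described here are 38 genes of mitosis and chromosome segregation, chosen by name from the 24494 gene symbols of an expression array. Each of the 38 is read by a single feature. They were measured in subcutaneous xenograft tumours of 1205Lu, an established human line of metastatic melanoma, in immunodeficient NSG mice (about 6 weeks of growth). In 3 tumours the cells expressed an shRNA that targets Shp2 (knockdown), and in 3 an shRNA with no target (control). PTPN11 encodes SHP2, a tyrosine phosphatase that passes signals from growth factor receptors to RAS and ERK, a pathway that drives cells into the cell cycle. The labels do not say which hairpin was used, or whether each tumour came from its own mouse, and p-values here reflect sample-to-sample spread alone, which may be technical. All values are log2 GCRMA values, and all differences are knockdown minus control.

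PTPN11 was 6.92, 6.34 and 6.88 in the knockdown tumours, against 8.47, 8.76 and 9.05 in the control tumours, and was the only one of 12541 genes tested to pass a limma adjusted p of 0.05 (log2 difference -2.05, adjusted p = 0.034; exact two-sided permutation p = 0.1, the smallest that 3 against 3 can give). That call was lost when any 1 array other than control 1 was left out (adjusted p 0.096 to 0.267). Of 13 melanoma identity genes, S100B and AXL exceeded the negative controls' 95th percentile in all 6 arrays and ERBB3 and SOX10 in 3, while the pigment genes MITF, MLANA, PMEL, TYR, TYRP1 and DCT, and S100A1, PRAME and NGFR, did so in none. The receptor ERBB3 was 4.80, 4.29 and 5.21 in knockdown tumours, against 5.30, 5.54 and 6.45 in control tumours, with no overlap (difference -1.0, unadjusted p = 0.0105, adjusted p = 1.000). Of the marker lists for host cells, 0 of 9 adipocyte and muscle, 0 of 6 keratinocyte, 0 of 7 lymphocyte, 1 of 9 endothelial and 1 of 6 erythroid genes exceeded the 95th percentile of the negative controls in any array. For macrophages it was 1 of 13 (CD68), and for fibroblast and mural cells 3 of 9 (PDGFRA, PDGFRB and COL1A1). The array reads human genes, and NSG mice lack mature lymphocytes but keep myeloid, vascular and other stromal cells, whose share in these tumours was not measured.

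Mitosis is run by a set of proteins, several of which are made anew in each cycle. Cyclin B with CDK1 and the kinases PLK1 and Aurora A drive entry, kinetochores attach chromosomes to the spindle, and the spindle checkpoint holds back the anaphase-promoting complex (APC/C) until all are attached. The central spindle and the contractile ring then divide the cell. The transcripts of most of these genes accumulate late in the cycle and are low in resting cells, which is why they are used as a readout of proliferation in tumours. In a bulk tumour, fewer dividing cells and less RNA per dividing cell cannot be told apart.

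These genes are known to share promoter elements. The cell cycle genes homology region (CHR) is bound by the MuvB core, which represses them with the DREAM complex in resting cells and activates them with B-MYB and FOXM1 in G2 and mitosis. CCAAT boxes bound by NF-Y lie near it. RefSeq promoter sequences (250 bases before to 50 after the gene start) were at hand for 30 of the 38 genes, the others being FOXM1, BUB3, TTK, UBE2C, AURKA, BIRC5, TPX2 and RACGAP1. The CHR was searched as TTTGAA, or on the other strand TTCAAA, and as the forms TTTAAA and also TTCGAA, each of which is its own reverse complement. One of these occurred in 28 of the 30 (93.3%), against 25.3% of 27305 promoters of all genes and 16% of the promoters of genes tested. CCAAT or its reverse complement ATTGG occurred in 24 (80.0%), against 35.7% of all promoters, and both motifs in 22 (73.3%), against 9.95%. The promoters of other mitosis genes lay between, with CHR letters in 60 of 129 (46.5%), CCAAT letters in 66 (51.2%) and both in 40 (31.0%). In replication genes, a set of the G1/S phase, the CHR letters stood in 5 of 40 promoters (12.5%) and CCAAT letters in 23 (57.5%). A CHR and a CCAAT match can share a base, as they do in MKI67 and CDCA8. CCNA2 and AURKB had no match to the CHR letters in this window. Other forms of the CHR, and bases outside the window, were not searched, so a gene's CHR can be missed. A match is a run of letters and not a shown binding site.

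**Figure D1:**
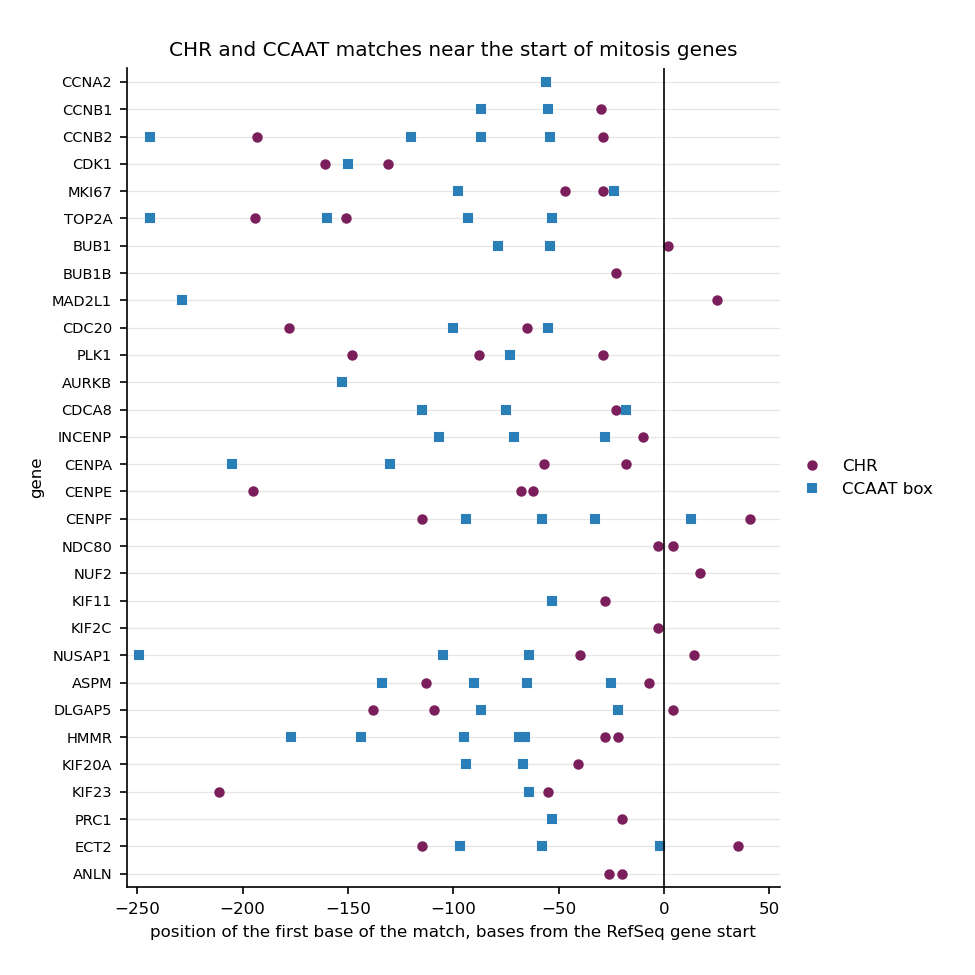
Positions of CHR letters (circles) and CCAAT boxes (squares) in the RefSeq promoters of 30 mitosis genes, on the x axis in bases from the gene start and on the y axis by gene. CHR letters stand in 28 of the 30 promoters and both motifs in 22.

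The 170 bases before the start are shown for 5 of the genes, 5′ to 3′ on the strand of the gene, with CHR and CCAAT letters in capitals (GRCh38.p14). INCENP, KIF11 and PLK1 had the smallest p of the genes with a promoter here, CDK1 had the lowest difference, and CCNB2 shows CCAAT boxes in a row ahead of a CHR. INCENP lies on the plus strand at chr11:62123841-62124010, KIF11 on the plus strand at chr10:92592960-92593129, PLK1 on the plus strand at chr16:23678719-23678888, CDK1 on the plus strand at chr10:60778161-60778330 and CCNB2 on the plus strand at chr15:59104976-59105145.
INCENP: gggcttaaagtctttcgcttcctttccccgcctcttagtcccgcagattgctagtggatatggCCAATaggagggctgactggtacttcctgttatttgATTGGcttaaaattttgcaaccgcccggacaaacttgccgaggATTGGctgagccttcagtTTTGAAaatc
KIF11: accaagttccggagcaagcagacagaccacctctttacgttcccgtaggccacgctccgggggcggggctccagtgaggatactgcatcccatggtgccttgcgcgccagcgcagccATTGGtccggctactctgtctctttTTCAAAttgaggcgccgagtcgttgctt
PLK1: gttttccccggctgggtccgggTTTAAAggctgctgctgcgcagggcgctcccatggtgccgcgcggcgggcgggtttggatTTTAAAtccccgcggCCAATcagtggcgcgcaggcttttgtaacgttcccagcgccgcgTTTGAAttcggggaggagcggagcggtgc
CDK1: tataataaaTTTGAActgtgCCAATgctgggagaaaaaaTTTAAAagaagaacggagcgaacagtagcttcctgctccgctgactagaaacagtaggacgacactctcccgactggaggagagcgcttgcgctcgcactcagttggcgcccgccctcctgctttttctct
CCNB2: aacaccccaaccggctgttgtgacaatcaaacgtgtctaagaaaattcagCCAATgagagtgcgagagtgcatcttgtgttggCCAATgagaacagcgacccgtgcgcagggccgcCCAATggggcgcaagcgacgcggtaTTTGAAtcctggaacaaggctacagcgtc
In the bases shown for CCNB2, CCAAT boxes began 120, 87 and 54 bases before the start and a CHR 29 bases before it. Farther up, outside these bases, CCNB2 had another CCAAT box at 244 and CHR letters at 193. In INCENP they began 107, 71 and 28 bases before it, with the CHR at 10. PLK1 had CHR letters at 148, 88 and 29 bases before the start with 1 CCAAT box at 73, and KIF11 had 1 CCAAT box at 53 and 1 CHR at 28. In CDK1 the CHR letters lay farther up, at 161 and 131 bases, with a CCAAT box between them at 150.

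None of the mitosis genes passed the test. Of the 38 genes, 37 were tested, and 0 rose, 0 fell and 37 did not pass an adjusted p of 0.05, beside 0.00797% of all genes tested. Also at an unadjusted limma p under 0.05 there were 0 of 37, beside 2.54% (319 of 12541). The differences were positive for 34 genes and negative for 3 (CDK1, UBE2C and NUF2), with a median of 0.15, beside 62% positive and a median of 0.05 over all genes tested. Among the 7005 genes that exceeded the negative control percentile in at least 3 arrays, as all 37 did, 68.7% of the differences were positive, with a median of 0.08. Between the largest difference (INCENP and NDC80, 0.50) and the lowest (CDK1, -0.27), the standard errors ran from 0.15 to 0.28, and no 95% interval excluded 0. The highest upper bound was 1.10 (NDC80, 2.15-fold) and the lowest lower bound -0.71 (CDK1, 0.613-fold). These extremes depended on single arrays. The difference of NDC80 was 0.19 without control 1 and 0.81 without control 3, that of INCENP 0.25 without control 1 and 0.32 without knockdown 2, and that of CDK1 -0.11 without knockdown 1 and -0.18 without control 3. Several signs also turned when 1 array was left out, or when the contrast between an array's positive and negative control features, described with the array pattern, was a covariate.

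**Figure D2:**
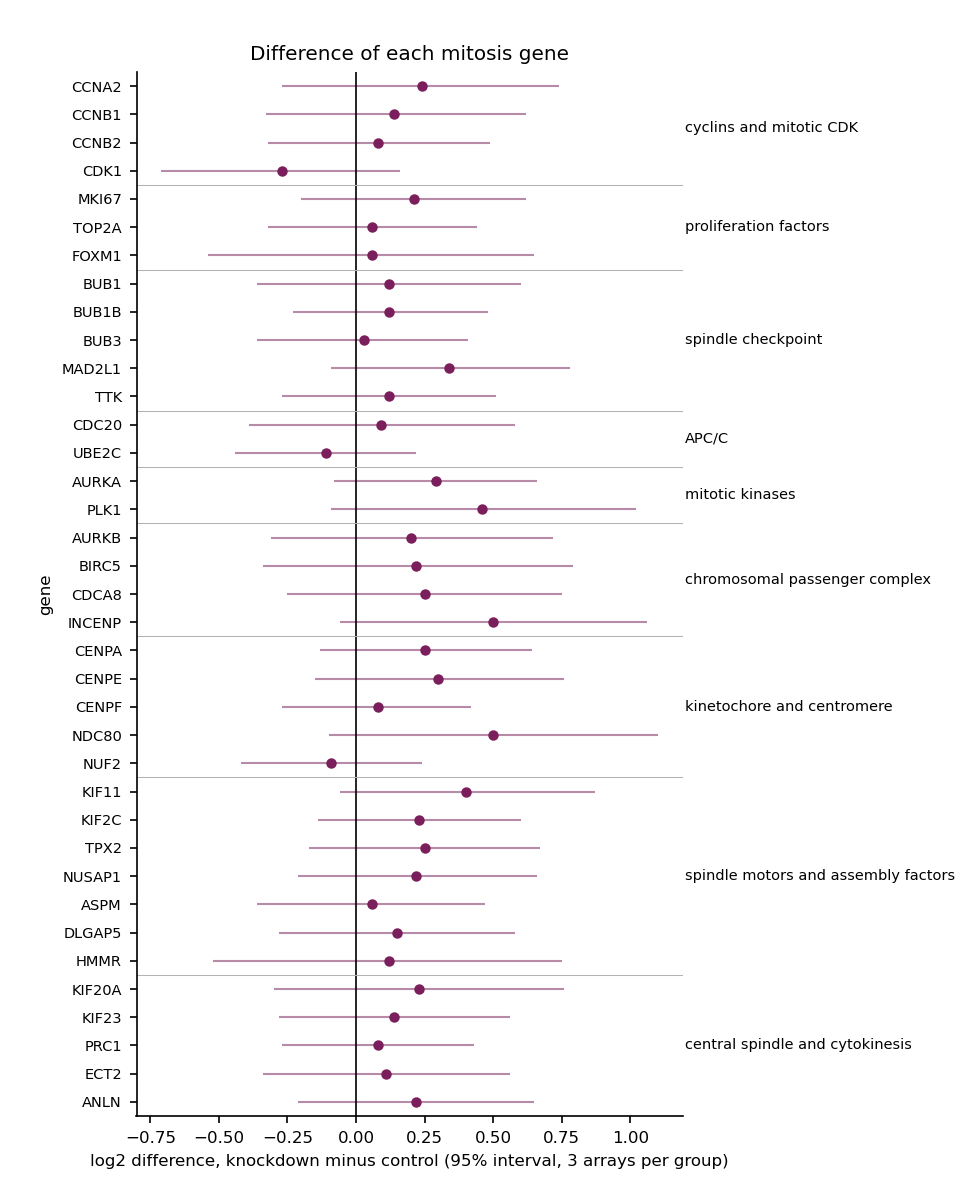
Log2 difference of each of 37 mitosis genes (x axis, knockdown minus control, 3 arrays per group; points) with its 95% interval from limma (bars), by role (y axis). Points lie right of 0 for 34 genes, and every interval includes 0.

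Cyclins and their kinase did not keep to one sign. CDK1, the mitotic cyclin-dependent kinase, was 6.39, 6.81 and 6.93 in knockdown tumours, against 6.75, 7.02 and 7.17 in control tumours (difference -0.27, SE 0.19, unadjusted p = 0.194). Its groups overlapped, and its lowest array was knockdown 1. Cyclin A2 (CCNA2), which acts in S phase and G2, was 8.01, 8.52 and 8.19 in knockdown tumours, against 7.55, 8.17 and 8.29 in control tumours (difference 0.24, SE 0.23). Control 1 stood below the other 5 arrays. The B-type cyclins, partners of CDK1 at mitotic entry, had differences of 0.14 (CCNB1) and 0.08 (CCNB2), and the gap between kinase and cyclins was not tested. With the covariate CCNA2 (-0.03) and CCNB2 (-0.04) were negative like CDK1, and with 1 array left out CCNB1 and CCNB2 reached -0.03 and -0.02.

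The proliferation factors differed little. MKI67, which encodes the proliferation marker Ki-67, a coat of mitotic chromosomes, was 8.63, 8.97 and 8.44 in knockdown tumours, against 8.35, 8.41 and 8.65 in control tumours (difference 0.21, SE 0.18). Topoisomerase II alpha (TOP2A), which untangles sister DNA, was 8.94, 9.21 and 9.08 in knockdown tumours, against 8.81, 9 and 9.23 in control tumours (difference 0.06). In both genes the groups overlapped. FOXM1, the transcription factor that activates many of the other genes here, averaged 7.08 ± 0.46 in knockdown and 7.02 ± 0.39 in control tumours (SD, n = 3 each), with a spread within each group several times the difference of 0.06.

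The spindle checkpoint gave positive differences for 5 of 5 genes. MAD2L1, which encodes MAD2, the protein that binds and blocks CDC20, was 7.07, 7.14 and 6.96 in knockdown tumours, against 6.32, 6.88 and 6.95 in control tumours (difference 0.34, SE 0.19, unadjusted p = 0.111). The groups did not overlap, though knockdown 3 and control 3 lay close together, and the difference was 0.14 without control 1. The checkpoint kinase-like protein BUBR1 (BUB1B) was 6.17, 6.41 and 6.14 in knockdown tumours, against 6.14, 6.01 and 6.20 in control tumours (difference 0.12). The kinases BUB1 and TTK (MPS1) had differences of 0.12 each, and BUB3, which docks BUB1 and BUBR1 at kinetochores, 0.03. With the covariate, BUB1 (-0.14) and BUB3 (-0.12) were negative, which left 3 of 5 positive, and with 1 array left out they reached -0.09 and -0.08.

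In 2 genes of the APC/C, the signs differed. UBE2C, the E2 enzyme that starts ubiquitin chains on APC/C substrates, was 7.19, 7.20 and 7.18 in knockdown tumours, against 7.38, 7.27 and 7.25 in control tumours. Its groups did not overlap, but the difference of -0.11 was smaller than its SE of 0.15 in the moderated fit. Control 1, the lowest array for most of the other genes, was the highest for UBE2C. The activator CDC20 was 6.44, 7.23 and 6.92 in knockdown tumours, against 6.55, 6.88 and 6.89 in control tumours (difference 0.09, SE 0.22).

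Both mitotic kinases had higher means in knockdown tumours without passing the test. PLK1, which acts at centrosomes, kinetochores and the midzone, was 7.54, 8.37 and 7.72 in knockdown tumours, against 7.10, 7.34 and 7.78 in control tumours (difference 0.46, SE 0.25, unadjusted p = 0.0933, 1.38-fold with a 95% interval of 0.937 to 2.03). Knockdown 2 stood apart, and without it the difference was 0.22. Aurora A (AURKA), the centrosome and spindle kinase, was 5.53, 5.90 and 5.58 in knockdown tumours, against 5.28, 5.35 and 5.51 in control tumours (difference 0.29, SE 0.17, unadjusted p = 0.113). Its groups did not overlap, but it exceeded the negative control percentile in only 4 arrays. With MAD2L1, it made 2 of 37 genes with all knockdown values above all control values, beside 3.86% of all genes tested. UBE2C was 1 of 37 in the opposite direction, beside 2.81% (6.67% of all genes in either direction).

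The chromosomal passenger complex, which corrects faulty attachments and later directs cytokinesis, gave positive differences for 4 of 4 subunits. INCENP, its scaffold, was 6.10, 6.77 and 6.36 in knockdown tumours, against 5.40, 6.07 and 6.25 in control tumours (difference 0.50, SE 0.25, unadjusted p = 0.0755, 1.41-fold with a 95% interval of 0.958 to 2.09). This was the smallest p of the 37. Borealin (CDCA8) was 5.48, 6.14 and 5.94 in knockdown tumours, against 5.23, 5.79 and 5.78 in control tumours (difference 0.25, SE 0.22). In both, control 1 was the lowest array and the groups overlapped. The kinase Aurora B (AURKB) had a difference of 0.20 (SE 0.23) and survivin (BIRC5), which recruits the complex to centromeres, 0.22 (SE 0.25). With the covariate, 3 of the 4 subunits were negative (AURKB -0.03, BIRC5 -0.11 and CDCA8 -0.0051), and with 1 array left out AURKB and BIRC5 reached -0.01 and -0.07.

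Subunits of the kinetochore did not share one pattern. NDC80, the microtubule-binding arm of the outer kinetochore, was 6.13, 6.20 and 6.13 in knockdown tumours, against 5.03, 5.67 and 6.27 in control tumours (difference 0.50, SE 0.27, unadjusted p = 0.0936). The knockdown tumours lay close together, while the control tumours ran below and above them. NUF2, its partner in the same complex, was 6.29, 6.46 and 6.28 in knockdown tumours, against 6.39, 6.47 and 6.44 in control tumours (difference -0.09, SE 0.15). The gap between these partners was not tested. The kinetochore motor CENPE was 6.34, 6.85 and 6.59 in knockdown tumours, against 5.97, 6.33 and 6.58 in control tumours (difference 0.30, SE 0.20). The centromeric histone CENPA had a difference of 0.25 (SE 0.17) and CENPF, a large kinetochore protein, 0.08 (SE 0.16).

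Spindle motors and assembly factors gave positive differences for 7 of 7 genes, and knockdown 2 was the highest of the 6 arrays in each. KIF11, the motor Eg5 that pushes spindle poles apart, was 8.71, 9.09 and 8.55 in knockdown tumours, against 8.07, 8.42 and 8.66 in control tumours (difference 0.40, SE 0.21, unadjusted p = 0.0806). KIF2C (MCAK), which depolymerises microtubules, was 6.56, 6.82 and 6.41 in knockdown tumours, against 6.34, 6.27 and 6.49 in control tumours (difference 0.23, SE 0.17). In both genes control 3 exceeded knockdown 3, so the groups overlapped. The spindle assembly factors TPX2 and NUSAP1 had differences of 0.25 and 0.22, the kinetochore fibre protein DLGAP5 (HURP) 0.15, the microtubule-associated protein HMMR 0.12 and the spindle pole protein ASPM 0.06. HMMR had the highest standard error of the 37, 0.28. With the covariate, HMMR (-0.205) and DLGAP5 (-0.02) were negative, and with 1 array left out HMMR and ASPM reached -0.16 and -0.09.

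Genes of the central spindle and cytokinesis gave positive differences for 5 of 5 tested. Anillin (ANLN), the scaffold of the contractile ring, was 9.50, 9.93 and 9.54 in knockdown tumours, against 9.19, 9.40 and 9.71 in control tumours (difference 0.22, SE 0.19). KIF20A (MKLP2), which carries the passenger complex to the midzone, was 5.99, 6.40 and 6.07 in knockdown tumours, against 5.53, 5.80 and 6.44 in control tumours (difference 0.23, SE 0.24). Their groups overlapped, with control 3 above knockdown 1 and 3 in ANLN and above every knockdown array in KIF20A. KIF23 had a difference of 0.14, the cytokinesis factor ECT2 0.11 and the antiparallel bundler PRC1 0.08. With the covariate, KIF20A (-0.03) and ECT2 (-0.07) were negative, and with 1 array left out KIF23 and ECT2 reached -0.04 and -0.03. RACGAP1, which forms centralspindlin with KIF23, was 2.34, 2.5 and 2.11 in knockdown tumours, against 2.58, 2.19 and 2.10 in control tumours. In all 6 arrays these values were under the negative control percentile and below the low-value filter, so it was the 1 gene not tested, with a signal not above background.

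For most of these genes the range within a group exceeded the difference between the group means. Knockdown 2 was the highest of the 6 arrays for 26 of 37 genes (70.3%), beside 28.4% of all genes tested, and control 1 was the lowest for 25 (67.6%), beside 45.8%. Among the 7005 genes above the negative control percentile, these shares were 36.2% and 59.8%, so that of control 1 was near its background. Within groups, knockdown 2 was the highest knockdown array for 35 genes, beside 48.1% of all genes tested. Control 3 was the highest control array for 34, beside 59.8%, and control 1 the lowest for 30, beside 61.5%. Related genes had much of the same pattern. Among other mitosis genes, knockdown 2 was the highest of the 6 arrays for 54.6% and control 1 the lowest for 60.3%. Among replication genes these shares were 57.8% and 71.1%. The mean over the 37 genes was 7.14, 7.53 and 7.19 in knockdown tumours, against 6.87, 7.11 and 7.36 in control tumours. Control 3 thus lay above 2 of the 3 knockdown tumours. The difference was smaller than the range within both groups for 31 of 37 genes. No share over all genes was computed for this, so it is not read as a trait of these genes. The median absolute difference was 0.20, and the median range was 0.40 within the knockdown and 0.51 within the control tumours.

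**Figure D3:**
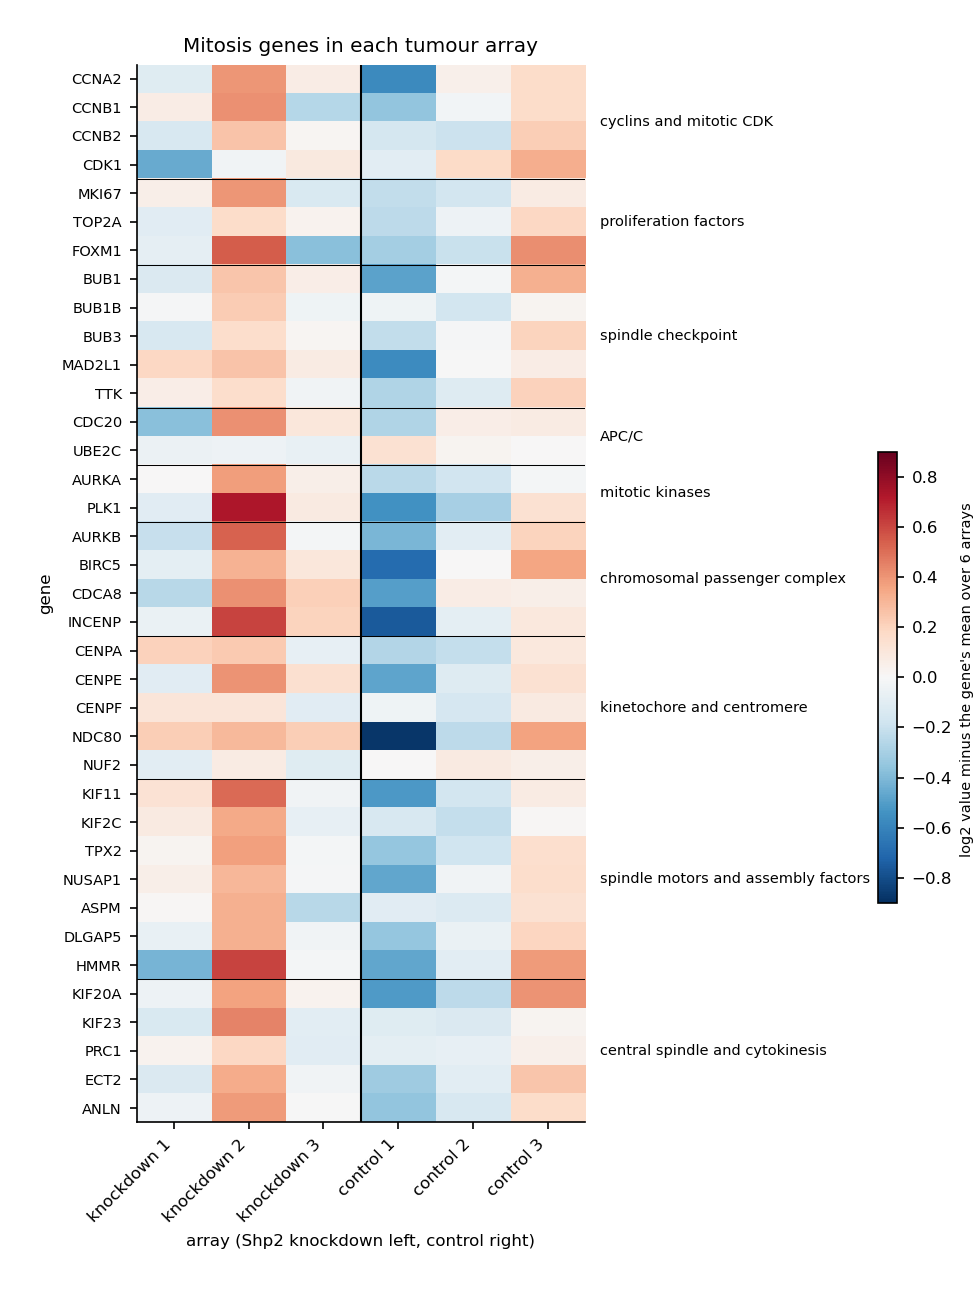
Log2 value of each of 37 mitosis genes (y axis, by role) in each array (x axis, knockdown left, control right) minus the gene's mean over the 6 arrays, as colour. Knockdown 2 is the highest array for 26 genes and control 1 the lowest for 25.

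Pairs of single tumours gave opposite answers. Knockdown 2 exceeded control 1 in 36 of 37 genes (median difference 0.68) and control 3 in 28 (median 0.18). Knockdown 1 and knockdown 3 each exceeded control 3 in only 6 of 37 (medians -0.16 and -0.17), and exceeded control 1 in 32 and 31. PTPN11 was lowest in knockdown 2 and highest in control 3, the arrays in which most of these genes were highest within their groups. Over all genes tested, knockdown 2 exceeded control 1 in 71.9% and knockdown 1 exceeded control 3 in 28.9%, but knockdown 3 exceeded control 3 in 43.5%. Also over all genes tested, knockdown 2 exceeded control 3 in 52.7%, and knockdown 1 and knockdown 3 exceeded control 1 in 61.9% and 69.2%. Knockdown 1 exceeded control 2 in 22 of 37 mitosis genes (median 0.07) and in 39.2% of all genes tested (median -0.06). Knockdown 2 exceeded control 2 in 34 of 37 (median 0.44) and in 64.9% of all genes tested. For knockdown 3 against control 2 it was 30 of 37 (median 0.08) and 58.6%.

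The contrast between positive and negative control features was 4.11, 4.44 and 4.47 log2 units in the knockdown arrays, against 3.64, 4.20 and 4.39 in the control arrays. It was lowest in control 1, where most of these genes were lowest too, but highest in knockdown 3 and not in knockdown 2. With this contrast as a covariate, the median difference of the 37 genes was 0.01, with 20 positive and 17 negative differences, and the median over all genes tested was -0.04. Without control 1 the median was 0.05 (26 positive, 11 negative) and without knockdown 2 it was 0.04 (23 positive, 14 negative), with medians over all genes of -0.01 and 0.02. Without control 3 it was 0.30, without knockdown 1 0.24 and without knockdown 3 0.23, with 34 positive differences in each. The medians over all genes were then 0.11, 0.10 and 0.04. Without control 2 the median of the 37 genes was 0.17 (33 positive, 4 negative), beside 0.06 over all genes. Immediate early and heat shock genes can follow tissue handling, but not handling alone. Their array medians around each gene's mean were -0.10, 0.18 and 0.13 in the knockdown and -0.30, 0.00 and 0.02 in the control arrays. Over all genes tested, these medians were -0.06, 0.10 and 0.05 in the knockdown and -0.16, -0.01 and 0.10 in the control arrays. The part of the immediate early and heat shock genes in the result was not tested.

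**Figure D4:**
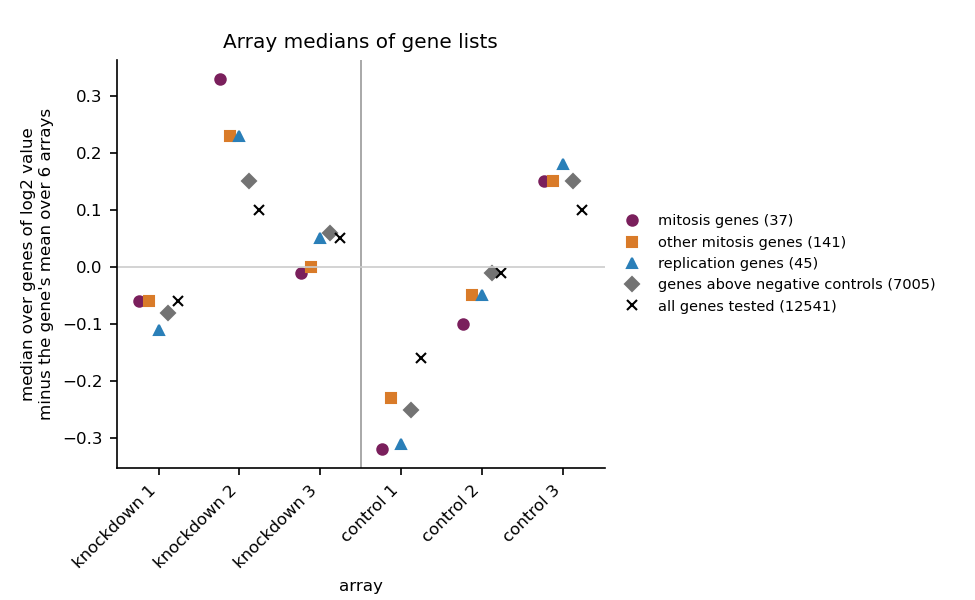
Median over the genes of each list (symbols; number of genes in the legend) of the log2 value minus the gene's mean over 6 arrays (y axis), per array (x axis, knockdown left, control right). The mitosis genes stand at 0.33 in knockdown 2 and -0.32 in control 1, and all genes tested at 0.10 in knockdown 2 and -0.16 in control 1.

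**Figure D5:**
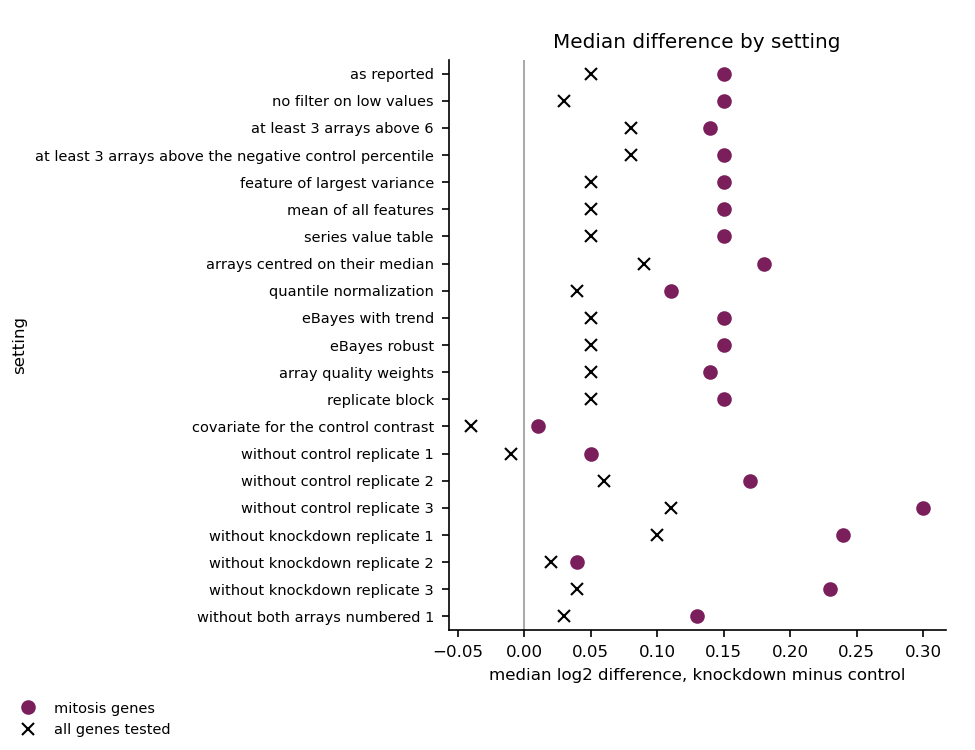
Median log2 difference, knockdown minus control (x axis), of the mitosis genes (circles) and of all genes tested (crosses) under each setting (y axis). The circles run from 0.01 with the control contrast as a covariate to 0.30 without control 3.

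Other genes of mitosis gave no calls either. Of 146 such genes in the table, 141 were tested, 0 rose and 0 fell, and 108 differences were positive and 33 negative (median 0.11). At an unadjusted p under 0.05 there were 3 of 141, beside the 2.54% above, and all of them had higher means in knockdown tumours. SKA2, a subunit of the SKA complex that couples kinetochores to microtubules, was 6.42, 6.57 and 6.16 in knockdown tumours, against 5.91, 5.61 and 6.06 in control tumours (difference 0.52, unadjusted p = 0.0179, adjusted p = 1.000). SGOL1, shugoshin, the guardian of centromeric cohesin, was 6.39, 6.99 and 6.66 in knockdown tumours, against 5.50, 5.96 and 6.53 in control tumours (difference 0.69, unadjusted p = 0.0267). CDC25A, a phosphatase that activates cyclin-dependent kinases, was 4.65, 4.88 and 4.74 in knockdown tumours, against 4.32, 4.44 and 4.35 in control tumours (difference 0.39, unadjusted p = 0.0294), which did not exceed the negative control percentile in any array.

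By list, positive differences numbered 32 of 37 for further kinetochore and centromere genes, 23 of 34 for further spindle genes, 15 of 19 for cohesin and condensin, 12 of 15 for further APC/C genes, 19 of 26 for mitotic entry and exit and 8 of 11 for cytokinesis, and 0 genes of any list passed the test. The genes of smallest p in these lists are named here with their log2 differences in brackets. They were the motor KIF18B (0.38), the spindle protein SPAG5 (0.48) and the condensin subunits NCAPH (0.38) and NCAPG (0.20). The others were the APC/C subunits CDC27 (0.31) and CDC23 (0.32) and, after CDC25A, the mitotic kinase PBK (0.32). For cytokinesis they were KIF20B (0.30), a kinesin, and CIT (0.24), citron kinase. Replication genes gave 37 positive differences of 45 and 0 calls (median 0.12), with cyclin E1 (CCNE1) at 0.37 and the helicase subunit MCM5 at 0.47. CDKN1C, which encodes the CDK inhibitor p57, was 4.54, 4.41 and 4.52 in knockdown tumours, against 5.14, 4.69 and 4.80 in control tumours (difference -0.39, unadjusted p = 0.0464, adjusted p = 1.000), and did not exceed the negative control percentile in any array. CDKN2D, which encodes p19, had a difference of 0.29 (unadjusted p = 0.134).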

How the data were processed

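RNA from 6 xenograft tumours was measured on Affymetrix-protocol arrays. The authors made the log2 values with GCRMA, per the submitters' processing notes. The sources used here give no version, array design or log base, and the values (0.05 to 13.3) are read as log2. Both deposited tables hold the same values (largest difference 0).

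Groups come from the sample titles. A feature with 1 gene symbol, the one of highest mean where a gene has several, stood for each gene. Genes were tested where at least 3 of 6 arrays exceeded 4, which left 12541 of 24494. limma 3.58.1 (lmFit, eBayes, all 6 arrays, no covariate; R 4.3.3) compared the groups, with two-sided tests, Benjamini-Hochberg adjustment over all genes tested and 95% intervals. On simulated data the fit recovered 4% of log2 changes of 0.5 and 84% of changes of 1, with 13 false calls. The limit set by the adjustment depends on how many genes change, and only 1 gene was called in the data. The shares recovered may therefore be lower in the data, where ERBB3 did not pass with a difference of -1. Not passing the test therefore does not show that a gene was unchanged, as no mitosis gene differed by more than 0.50. Values were also set against the 95th percentile of 3575 negative control features of each array. The number of arrays limits the precision.

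The 38 genes and all other lists were chosen with earlier results of these data known, and lists are described by counts and medians without a test. Values in every array are given for the 2 genes of smallest p per role and for genes whose groups do not overlap. Outside this rule, they are also given for NUF2, as the partner of NDC80, and for RACGAP1, which was not tested. From each list of the pathway, the 2 genes of smallest p are named. In all, 21 alternatives were tried, and the closing section gives their ranges and the values that changed. Promoter letters are RefSeq's, build GRCh38.p14.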

Additional observations from a re-analysis of the deposited data

How the results depend on the processing

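No mitosis gene passed an adjusted p of 0.05 under any of the 21 alternatives (limma, smallest adjusted p 0.626, without control 3), nor at a threshold of 0.1. At an unadjusted p under 0.05 there were between 0 and 5 of these genes. The 5 came without control 3, beside 7.62% of all genes tested, and 3 came with the sample number as a replicate block, beside 5.81%. The median difference lay between 0.041 and 0.299 when 1 array was left out, 0.11 to 0.18 under other scalings, and 0.01 with the covariate. All genes called numbered 0 with no filter, quantile normalization and the covariate, 5 with the replicate block, 2 without both arrays numbered 1, and 0 to 1 when 1 array was left out. The PTPN11 difference was then -2.049, -2.086 and -2.159 in the first 3 (adjusted p 0.079, 0.077 and 0.074), and between -2.195 and -1.864 when 1 array was left out. The correlation of same-numbered deviations was 0.359, -0.009 and 0.129 for numbers 1 to 3. For unlike numbers it ran from -0.353 (knockdown 1, control 3) to 0.285 (knockdown 2, control 3). Number 1 thus lay above that range and numbers 2 and 3 within it. The numbers were not taken as pairs in the main fit, and a link between the arrays numbered 1 was not tested.

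Signs turned with the covariate for CCNA2 (-0.027), CCNB2 (-0.037), TOP2A (-0.076), FOXM1 (-0.125), BUB1 (-0.136), BUB3 (-0.116), CDC20 (-0.106), AURKB (-0.026), BIRC5 (-0.11), CDCA8 (-0.0051), DLGAP5 (-0.024), HMMR (-0.205), KIF20A (-0.03) and ECT2 (-0.073). They also turned for TOP2A with quantile normalization (-2e-04), for FOXM1 (-0.029) and BUB3 (-0.0018) without both arrays numbered 1, and for FOXM1 under quality weights (-0.0033). With 1 array left out, differences ran from -0.09 to 0.194 for ASPM, -0.012 to 0.358 for AURKB, -0.067 to 0.455 for BIRC5, -0.089 to 0.306 for BUB1, -0.077 to 0.132 for BUB3, -0.026 to 0.31 for CCNB1, -0.022 to 0.219 for CCNB2, -0.092 to 0.303 for CDC20, -0.029 to 0.264 for ECT2, -0.197 to 0.282 for FOXM1, -0.156 to 0.355 for HMMR, -0.044 to 0.243 for KIF23 and -0.039 to 0.171 for TOP2A. None of these differences had passed the test, and the cause was not tested. With 3 arrays a group, the 95% interval of a single gene reached up to 2.15-fold (NDC80).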
